A study of Mus musculus with 2 samples.

Results

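Hdac3, Hdac4, Hdac5, Hdac6, Hdac7, Hdac8, Hdac9, Hdac10 and Hdac11 encode the zinc-dependent histone deacetylases of the mouse other than Hdac1 and Hdac2. These 9 genes, of 21779 protein-coding genes in all, were examined for peaks of Sap130, which belongs to the Sin3 corepressor, in the embryonic heart. They were chosen by name, with earlier results of these data known. For each, the deposited Sap130 peak summits lying inside the gene or within 10000 bp of either of its ends were collected, 17 summits of the 14881 on nuclear chromosomes. The material was heart tissue of C57BL/6 mice at stage E12.5, for which no mutation or treatment is named. There was 1 library of chromatin recovered with a rabbit anti-Sap130 antibody (2 µg), and 1 library of input DNA made without antibody, against which the authors called peaks. How many hearts went into each library is not given in the sources used here. A peak list does not measure expression, so the labelled tissue could not be checked by the levels of marker genes.

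Histone deacetylases remove acetyl groups from lysines of histones and other proteins, and the zinc-dependent ones fall into classes by sequence. Class I holds Hdac1, Hdac2, Hdac3 and Hdac8. Hdac1 and Hdac2 are the catalytic subunits of the Sin3 complex, whereas Hdac3 works in the NCoR corepressor and Hdac8 acts on cohesin. Class IIa holds Hdac4, Hdac5, Hdac7 and Hdac9, which have little catalytic activity of their own, bind Mef2 transcription factors and leave the nucleus when kinases phosphorylate them. In heart muscle these class IIa proteins restrain growth, and Hdac7 is needed in the lining of blood vessels. Class IIb holds Hdac6, a mostly cytoplasmic deacetylase of tubulin, and Hdac10, which acts on polyamines. Hdac11 alone forms class IV.

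A Sap130 summit lay in reach of 8 of the 9 genes, and Hdac6 was the one without. Across all protein-coding genes the share was 60.1%. A summit lay inside the gene itself for the same 8, against 50.9% of all protein-coding genes. The authors' score, the −log10 of either a p or a q per peak, was mostly in the middle range or low at these genes. It reached 428 over all summits, with quartiles of 13.9 and 65.2 around a median of 33.3. Of the 17 summits, 11 had a boundary of the deacetylase gene as the nearest protein-coding gene boundary and are called the gene's own below. The other 6 lay nearer to a neighbouring gene. Of the 9 genes, 8 had a summit of their own, against 51.1% of all protein-coding genes. The score is used here only to rank summits within this 1 list. With 1 library there is no replicate error, and no test of a difference between genes or classes was made.

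**Figure D1:**
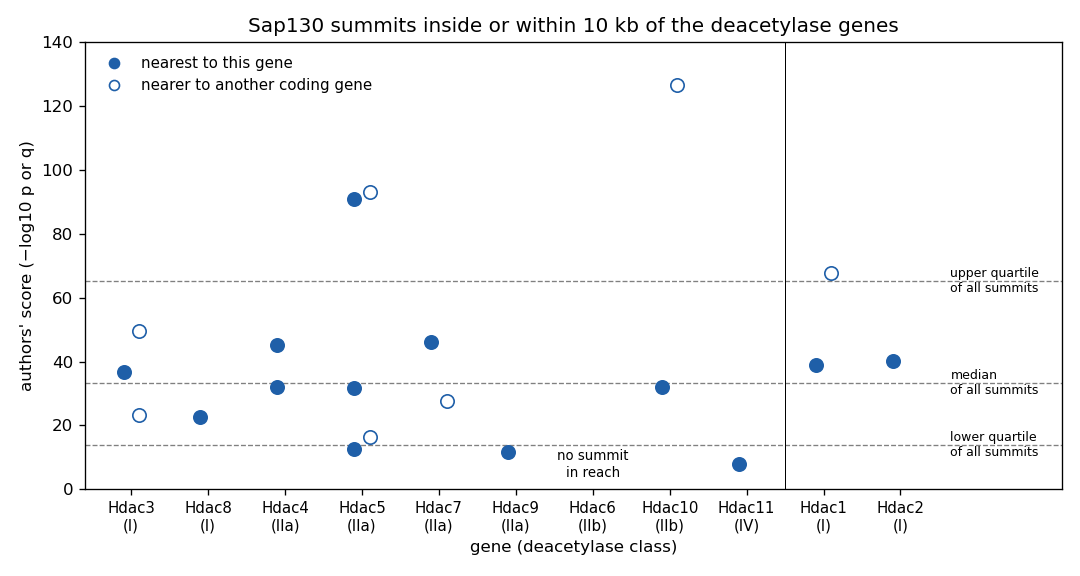
Authors' score (−log10 p or q, vertical axis) of every Sap130 summit inside or within 10 kb of each deacetylase gene (horizontal axis, class in brackets), with filled points for summits nearest to that gene, open points for summits nearer to another protein-coding gene, and dashed lines at the quartiles of all summits. Only Hdac5 has a filled point above the upper quartile, at 90.9, and Hdac6 has no point.

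Sequences of RefSeq build GRCm38.p6 were listed for 7 of the 9 genes, with 11 starts in all; Hdac3 and Hdac10 had none listed. The sequences below show what stands just before listed starts. Those of Hdac5, Hdac4 and Hdac7 at 97831767, called inner here, had a summit within 1000 bp. The outer start of Hdac7 and the outer start of Hdac9 had none. The Hdac7 start at 97831495, nearer to the same summit and with 1 GGGCGG before it, is not printed. Each sequence holds the 250 bases before a listed start, on the minus strand, read 5′ to 3′. None of the windows printed in this paragraph holds a summit itself. Capitals mark the GC box GGGCGG and the CCAAT box on either strand, and a sequence without capitals holds neither. Hdac5 is chr11:102230173-102230422, Hdac4 chr1:92180342-92180591, inner Hdac7 chr15:97831768-97832017, outer Hdac7 chr15:97844503-97844752 and outer Hdac9 chr12:34917096-34917345.
Hdac5: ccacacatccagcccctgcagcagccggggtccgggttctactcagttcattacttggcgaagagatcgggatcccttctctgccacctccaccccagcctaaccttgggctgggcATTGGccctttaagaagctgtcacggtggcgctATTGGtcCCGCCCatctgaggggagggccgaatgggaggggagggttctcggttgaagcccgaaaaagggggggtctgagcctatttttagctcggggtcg
Hdac4: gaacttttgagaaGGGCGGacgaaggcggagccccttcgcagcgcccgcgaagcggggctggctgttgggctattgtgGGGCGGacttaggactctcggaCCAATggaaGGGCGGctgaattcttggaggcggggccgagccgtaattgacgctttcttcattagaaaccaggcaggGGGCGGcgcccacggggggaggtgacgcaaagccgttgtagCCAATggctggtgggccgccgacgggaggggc
Hdac7 inner start: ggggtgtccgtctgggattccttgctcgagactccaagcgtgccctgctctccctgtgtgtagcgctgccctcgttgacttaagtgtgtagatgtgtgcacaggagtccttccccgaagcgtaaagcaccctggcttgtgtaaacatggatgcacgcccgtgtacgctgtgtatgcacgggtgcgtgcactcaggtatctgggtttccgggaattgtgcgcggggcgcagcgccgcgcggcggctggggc
Hdac7 outer start: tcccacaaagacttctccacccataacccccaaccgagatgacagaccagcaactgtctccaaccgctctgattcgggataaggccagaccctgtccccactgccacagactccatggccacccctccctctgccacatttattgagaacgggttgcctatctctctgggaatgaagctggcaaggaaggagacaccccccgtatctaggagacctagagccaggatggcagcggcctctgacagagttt
Hdac9 outer start: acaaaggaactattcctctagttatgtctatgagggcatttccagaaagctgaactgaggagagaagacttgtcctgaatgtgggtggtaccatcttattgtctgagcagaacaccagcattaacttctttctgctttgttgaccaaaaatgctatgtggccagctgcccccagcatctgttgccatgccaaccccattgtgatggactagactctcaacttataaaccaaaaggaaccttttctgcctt

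The remaining sequences belong to the X-linked genes. For Hdac6, which had no summit, the part outside the annotated gene is shown (chrX:7948048-7948139, minus strand), with the same capitals. For Hdac8, the 30 bases around the summit are shown (chrX:102505197-102505226, minus strand), and the single capital is the summit base itself.
Hdac6: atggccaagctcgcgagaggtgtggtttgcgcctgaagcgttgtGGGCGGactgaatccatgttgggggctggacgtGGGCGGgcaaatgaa
Hdac8: tggacgagggaccagGgaaactgtctccgg

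In class I, Hdac3 and Hdac8 each had 1 summit of their own, just inside 1 end of the gene. Hdac3, the deacetylase of NCoR (gene ID 15183, chromosome 18, 37936971 to 37955015), had its own summit at 37954811, 204 bp inside the right end as the chromosome is numbered, with a score of 36.6. A second summit lay 445 bp farther, 241 bp beyond the end of Hdac3 and 202 bp inside the adjoining gene Rell2, with a score of 23.1. The interval between the genes was thus flanked by a summit on each side, the higher one in Hdac3. On the left of Hdac3, a summit of 49.5 was 1733 bp away and 384 bp inside Diaph1, which encodes a formin that builds actin filaments. The highest score in reach of Hdac3 therefore came from its neighbour.

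Hdac8 (gene ID 70315, X chromosome, 102284638 to 102505381) spans 221 kb and had a single summit, at 102505211, with a score of 22.7. That position was 170 bp inside the right end and 53 bp before the listed start, the one case among the 11 listed starts where a summit lay in the 250 bases before it. It also lay inside Gm32262, a long non-coding RNA gene that runs along most of Hdac8 and whose end was 115 bp away. The sequence before this start held 6 CpG and no GC box. No other summit was found along the gene, and the next ones outside were 32837 bp to the left, at Cited1, and 138687 bp to the right, at Phka1. At rank 9152 of 14881, the Hdac8 summit was below the median of the list. For genes on the X chromosome the share with a summit in reach was 36.4%, against 61.9% on the autosomes. Among the genes with a summit in reach, the median highest score was 19.9 on X and 55.9 on the autosomes. A summit of their own was found for 32.0% of the genes on X, with a median highest own score of 19.3.

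For comparison, the Sin3 deacetylases had own summits of near-equal score, 38.8 for Hdac1 (115 bp inside its right end) and 40.3 for Hdac2 (484 bp inside its left end and 237 bp after its listed start). The own score of Hdac3, 36.6, was just below both, and that of Hdac8 was lower.

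In class IIa, all 4 genes had a summit of their own, but the sites differed. Among protein-coding genes spanning 30 to 100 kb, the range of Hdac5 and Hdac7, 65.1% had an own summit. The share was 72.2% for 100 to 300 kb (Hdac4) and 69.1% for 300 kb or more (Hdac9). Hdac5 (gene ID 15184, chromosome 11, 102195747 to 102230172) had the most summits, 5 in reach, of which 3 were its own. Of 5063 protein-coding genes spanning 30 to 100 kb, 72.3% had at least 1 summit in reach and 0.948% had 5 or more. The strongest own summit, at 102229948, was 224 bp inside the right end, which is also the listed start, and scored 90.9, rank 1846 of 14881. A weaker summit of 12.6 lay on the other side of the same start, 279 bp before it and 503 bp from the first. The microRNA gene Mir8101 lies within this end of Hdac5, with a boundary 92 bp from the stronger summit. The third own summit, of 31.6, lay 11502 bp inside the gene, away from the 1 start listed for it. To the left of Hdac5, summits of 93.0 and 16.5 stood on either side of an end of G6pc3, a glucose-6-phosphatase, 6209 and 5733 bp from Hdac5. Hdac5 thus had the highest own score of the 9 genes. Among protein-coding genes with an own summit, 83.5% scored lower than Hdac5.

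Hdac4 and Hdac7 had their own summits at inner starts and not at the ends of the gene. Hdac4 (gene ID 208727, chromosome 1, 91928779 to 92195702) spans 267 kb and held 2 summits, 734 bp apart, on either side of its listed start at 92180341. The one 254 bp after the start scored 45.1 and the one 480 bp before it 32.1. Both lay over 10 kb from the gene's right end (15615 and 14881 bp), so the window of 1000 bp at gene ends missed them. No other protein-coding gene lay in reach of Hdac4, and its next summits were 127113 bp to the left, at Twist2, and 277964 bp to the right, at Ndufa10.

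Hdac7 (gene ID 56233, chromosome 15, 97792661 to 97844502) has 4 listed starts and held 1 summit, at 97831173, with a score of 46.0. It lay 322 and 594 bp after the starts at 97831495 and 97831767. The outer start at 97844502 was 13329 bp from it and the innermost, at 97814863, was 16310 bp from it. So the Hdac7 summit stood by the middle pair of starts and by neither of the others. The long non-coding RNA gene Gm33636 covers the same position, with a boundary 487 bp away. A further summit in reach, of 27.8 and 8077 bp to the left, lay 219 bp inside Slc48a1, which encodes a heme transporter. Of the summits outside their deacetylase gene, it was the farthest. The closest one left out by the reach of 10000 bp lay 10947 bp to the left of Hdac5, in Lsm12, with a score of 67.9.

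Hdac9 (gene ID 79221, chromosome 12, 34047580 to 34917095) is the longest of the genes, at 870 kb, and held 1 summit with a low score of 11.7, rank 11802. This summit lay at 34907359, 9736 bp inside the right end and as far after the outer listed start. The inner listed start was 378470 bp from it. Neither listed start of Hdac9 therefore had a summit within 1000 bp, and any start not listed could not be examined. Of 557 protein-coding genes spanning 300 kb or more, 72.0% had a summit in reach, and the median of their highest scores was 24.4, also low beside 54.7 for all protein-coding genes with one. The nearest summits outside were 89414 bp to the left, at Twist1, and 130326 bp to the right, at Snx13.

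**Figure D2:**
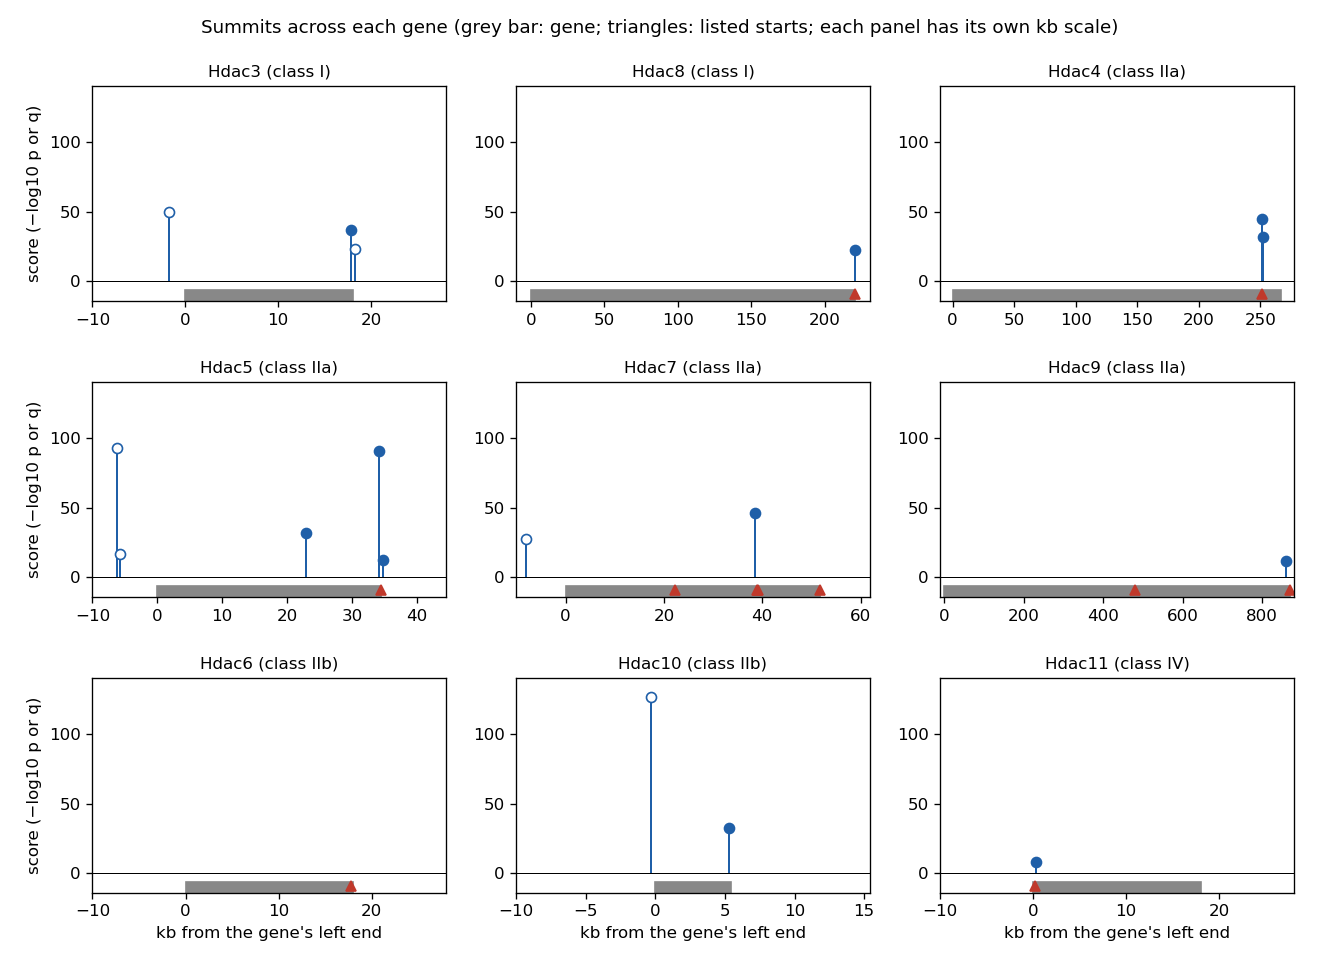
Score of each summit (−log10 p or q, vertical axis) against its distance from the left end of the gene (kb, horizontal axis, with its own scale in each panel), for the 9 genes with 10 kb on either side; the grey bar is the gene, triangles are listed starts, and filled and open points are own and neighbours' summits. The summits of Hdac4 stand by an inner start, that of Hdac7 by the middle pair of its starts, and that of Hdac9 is 9736 bp from its nearest listed start.

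In class IIb, 1 of 2 genes had a summit. Hdac10 (gene ID 170787, chromosome 15, 89123303 to 89128700) is the shortest gene, at 5398 bp, and had a summit in reach of each end. Its own, at 89128578, was 122 bp inside the right end, with a score of 32.2, and 39 bp from the boundary of the long non-coding RNA gene Gm46530, which overlaps that end. The other scored 127, rank 615, the highest of the 17, but lay 338 bp outside Hdac10 and 243 bp inside Tubgcp6, which encodes a part of the gamma-tubulin ring of the centrosome. The 2 scores within 10000 bp of Hdac10 thus differed widely, and the higher one was not in the gene. Among protein-coding genes spanning under 10 kb, 42.8% had a summit in reach.

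Hdac6 (gene ID 15185, X chromosome, 7930116 to 7948047) had no summit inside it or in reach. The nearest was 30585 bp to the left, of score 20.2 and 195 bp inside Timm17b, a part of the mitochondrial import machinery. On the right the nearest was 126446 bp away, of score 41.1 and 267 bp inside Suv39h1, a histone methyltransferase. The protein-coding genes in reach of Hdac6, Pcsk1n and Eras, had none in this interval either. Of the genes spanning 10 to 30 kb, the range of Hdac6, Hdac3 and Hdac11, 65.6% had a summit in reach, and of genes on the X chromosome 36.4%. A gene without a summit is one where no peak passed the authors' threshold. The depth of the library is unknown, so whether weaker binding there could have been detected is unknown too.

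Hdac11, the only class IV gene (gene ID 232232, chromosome 6, 91156670 to 91174692), had 1 summit, at 91156934, which was 264 bp inside its left end and 119 bp after its listed start. Its score of 8.01 was the lowest of the 17, rank 13129, and 5.46% of protein-coding genes with an own summit scored lower. The summit thus stood close to the start, with a score below the lower quartile of the list. No other protein-coding gene lay in reach.

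By class, a summit in reach was found at 2 of 2 genes in class I, 4 of 4 in class IIa, 1 of 2 in class IIb and 1 of 1 in class IV. Across all protein-coding genes the share was 60.1%, and it was 72.0% to 76.7% in the span bins that hold the class IIa genes. On the X chromosome, which carries Hdac6 and Hdac8, it was 36.4%. The difference between classes was not tested. A summit within 1000 bp of a gene end was found for both class I genes, for 1 of 4 class IIa genes, for 1 of 2 in class IIb and for the class IV gene, 5 of 9 in all. The share was 48.4% over all protein-coding genes. Of the 7 genes with a listed start, 5 had a summit within 1000 bp of one, namely Hdac4, Hdac5, Hdac7, Hdac8 and Hdac11, against 52.2% of 17492 protein-coding genes with a listed start. Counting either kind of site gave 7 of the 9 genes, leaving Hdac6 and Hdac9. The share of all protein-coding genes with either kind was not computed. The separate shares above are therefore no measure for this joint count. Highest own scores ran from 22.7 to 36.6 in class I and from 11.7 to 90.9 in class IIa, and were 32.2 at Hdac10 and 8.01 at Hdac11. Class IIa thus held the highest own score and 1 of the lowest, and its range enclosed that of class I.

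Scores at these genes were in median below those of all genes with a summit. The median over the 8 genes of the highest score in reach was 45.5, against 54.7 for all protein-coding genes with a summit in reach. For own summits the medians were 34.4 and 45.9. By gene span, the median highest own score ran from 23.8 for 300 kb or more to 51.9 for 30 to 100 kb. On the X chromosome it was 19.3. The comparison with all genes was not matched for span or chromosome. Of the 11 own summits, 4 scored at or above the median of all summits, 1 at or above the upper quartile and 3 below the lower quartile. With summits at or above the median score alone, 5 of the 9 genes had one in reach, Hdac3, Hdac4, Hdac5, Hdac7 and Hdac10, against 41.9% of all protein-coding genes. At or above the upper quartile there were 2, Hdac5 and Hdac10, against 24.3%, and the Hdac10 one was the summit in Tubgcp6.

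**Figure D3:**
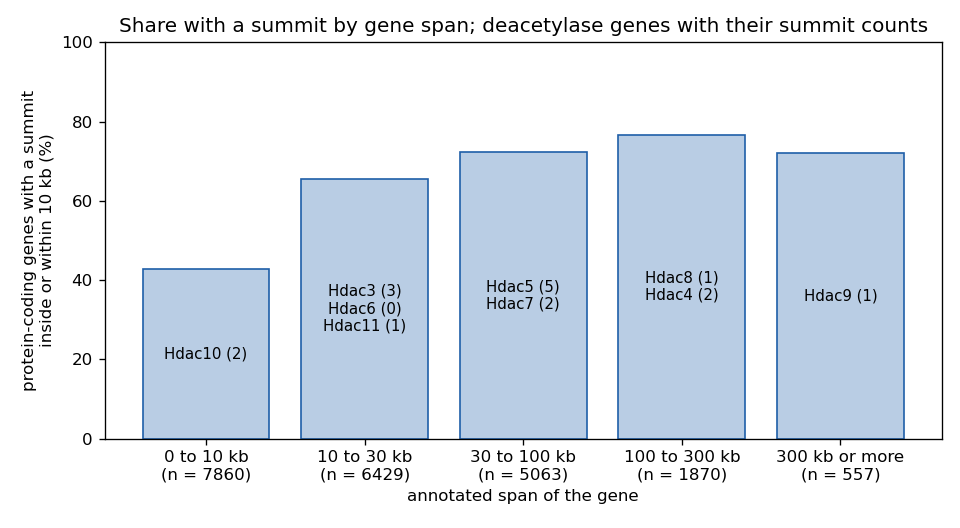
Share of protein-coding genes with a summit inside or within 10 kb (percent, vertical axis) by annotated span of the gene (horizontal axis, n genes in each bin), with the 9 deacetylase genes named in their bin and their number of summits in brackets. The share is 42.8% below 10 kb and 65.6% to 76.7% in the other bins, and Hdac6, in the bin of 10 to 30 kb, is the one with 0.

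Before the starts with a summit the sequence was mostly richer in CpG than before those without, and Hdac6 stood apart from this. CpG content is given as the observed over the expected number of CpG in the 250 bases before a start. Its median was 0.781 for 10715 protein-coding starts with a summit within 1000 bp and 0.223 for 10548 without. At the 6 starts of these genes with a summit it ran from 0.415, at Hdac8, to 0.930, at Hdac4. At the 5 starts without, it was 0 and 0.175 at the outer and inner Hdac9 starts, 0.317 and 0.222 at the outer and innermost Hdac7 starts, and 0.843 at Hdac6. The Hdac6 start was thus CpG-rich and had no summit. Hdac8 had the lowest value of the 6 starts with a summit, though above the median of 0.223 for starts without. Hdac5, with the highest own score, had 0.521, near the median of all protein-coding starts, 0.530.

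Of 5 short motifs searched on both strands of those 250 bases, GGGCGG and CCAAT were found. GGGCGG stood before 4 of the 6 starts with a summit (Hdac4, Hdac5, Hdac11 and the Hdac7 start at 97831495) and 1 of the 5 without (Hdac6), against 42.6% of all protein-coding starts, 66.0% of those with a summit and 18.9% of those without. Hdac4 and Hdac6 each had 4 copies of GGGCGG and 2 of CCAAT, as can be seen in part in the sequences above, yet Hdac4 had a summit on either side of its start and Hdac6 had none. CCAAT stood before 4 of the 6 and 1 of the 5 starts, against 35.4% of all protein-coding starts. Over all of these it was about as frequent with a summit (35.3%) as without (35.4%). The other motifs searched were in none of the 11 windows: the E-box CACGTG, which stands before 6.63% of all protein-coding starts, the ETS-type motif CCGGAAG (8.98%) and the cAMP response element TGACGTCA (1.92%). In the Hdac8 window the 2 matches of CCAAT overlap, as 1 on each strand. A match is a run of letters, not a shown binding site.

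Genes whose products work with these deacetylases were taken as lists. Over all protein-coding genes, 51.1% had an own summit, with a median highest own score of 45.9, and each list is read against these. That share depended on gene span, from 32.3% below 10 kb to 72.2% for 100 to 300 kb. The lists were not matched for span, so a count above 51.1% is not by itself a trait of a list. All 4 genes taken as partners of Hdac3 in NCoR had an own summit, against 51.1% of all genes, with a median highest own score of 77.4. Hdac3 itself had 36.6. Ncor1, the scaffold of the complex, had 98.1, whereas Tbl1xr1 had 56.9 and its relative Tbl1x, on the X chromosome, had 36.1, just below Hdac3. Gps2, a small subunit, had 97.9, and a summit of 132 in its reach belonged to Eif5a.

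For the class IIa proteins, the Mef2 factors they bind all had an own summit (4 of 4, against 51.1% of all genes), with a median highest own score of 18.4, below the 45.9 of all genes. Mef2d had 116, and Mef2c, a factor of early heart development, had 3 own summits of which the highest scored 8.08. The 14-3-3 proteins, which hold phosphorylated class IIa proteins in the cytoplasm, had an own summit at 6 of 7 genes (all genes 51.1%), with a median of 74.8. Ywhab had 141, the lowest of the 6 was Ywhag with 71.6, and Sfn had none in reach. Of 10 kinases that phosphorylate class IIa proteins, 8 had an own summit (all genes 51.1%), with a median of 55.6. Sik1, a salt-inducible kinase, had 108, Camk1 had 10.2, Camk4 had no summit in reach, and the 1 summit in reach of Sik3 was nearer to Pafah1b2.

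Of the sirtuins, the deacetylases of class III that use NAD in place of zinc, 6 of 7 had an own summit (all genes 51.1%), with a median of 44.5, near the 45.9 of all genes. Sirt7, a sirtuin of the nucleolus, had 124, while the highest in its reach, 135, was nearer to Mafg, and Sirt4, of mitochondria, had no summit in reach. Own scores were low at Sirt2 (9.09) and Sirt5 (8.53). All 10 histone acetyltransferase genes, whose products add the acetyl groups that deacetylases remove, had an own summit, against 51.1% of all genes, with a median of 81.1. Kat2a had 135, and Crebbp 103 with a summit of 136 in its reach that was nearer to Trap1. Kat5 (15.7) and Kat2b (34.1) were below the median of all genes. These counts and medians are descriptions of fixed lists in 1 library, not matched for gene span, and the differences between lists were not tested.

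**Figure D4:**
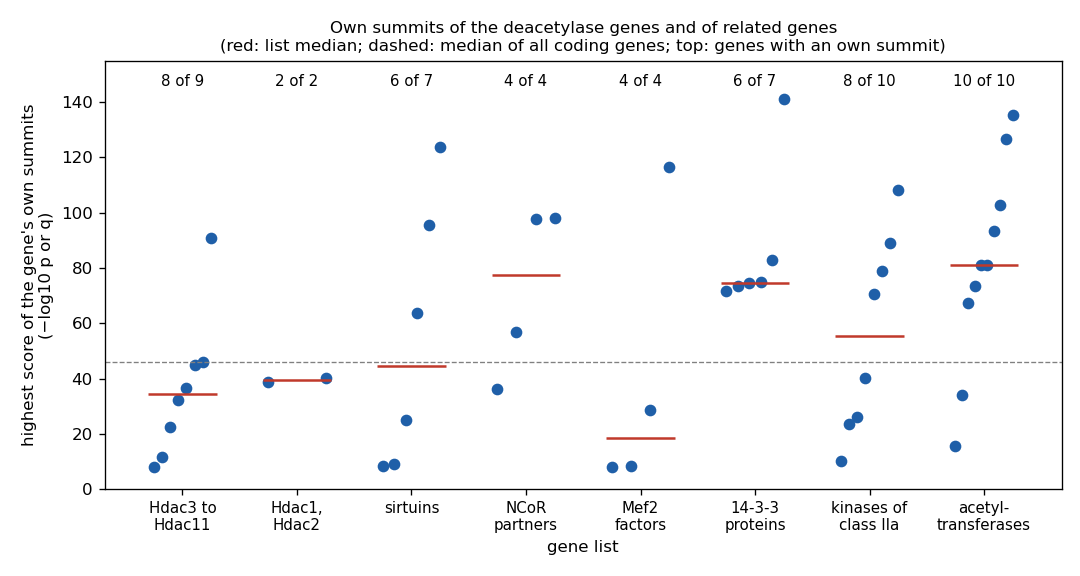
Highest score among the own summits of each gene (−log10 p or q, vertical axis) for the deacetylase genes and the related gene lists (horizontal axis), with 1 point per gene, a red line at the list's median, a dashed line at 45.9, the median of all protein-coding genes with an own summit, and the number of genes with an own summit above. The acetyltransferases, with a median of 81.1, lie mostly above the dashed line, and 6 of the 8 deacetylase genes with a point lie below it.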

How the data were processed

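Sap130 ChIP DNA and input DNA of mouse E12.5 hearts were sequenced as 1 library each. The submitters' processing notes name Bowtie 1.1.2, MACS2 2.1.0.20140616 and build GRCm38 (mm10), while the settings are not stated in these sources. The authors deposited 14886 summits, each 1 base long, with a −log10 score per summit, from either p-values or q-values. It grows with depth, which is unknown, and gives no fold over input.

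Summits on 20 nuclear chromosomes (14881) were set against RefSeq genes of GRCm38.p6, leaving out mitochondrial and unplaced genes and, except on Y, those starting before 3 Mb. A summit was a gene's own when its nearest protein-coding boundary was that gene's, or when it lay inside that gene and over 1000 bp from the ends of all others. Listed starts came from a RefSeq table of promoters (17492 protein-coding genes), which does not list every gene. It may not list every start of a gene either, as it has none at the right end of Hdac4. All 9 genes, Hdac1 and Hdac2 are named, with the neighbouring gene of each summit nearer to it, and from each list the highest-scoring gene and those without a summit; other genes named were chosen after their values were seen. The genes and lists were chosen with earlier results of these data known. Alternatives were other reaches and windows, higher score thresholds, merging within 500 bp and own summits alone. The measure at listed starts and its alternatives were chosen after seeing the data. Of the lists, 1 gene is not reported here. The counting was tested on simulated data. Computation used Python 3.11.15, numpy 2.4.6, pandas 2.3.3 and matplotlib 3.10.9.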

Additional observations from a re-analysis of the deposited data

How the results depend on the processing

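The count of 8 genes with a summit was the same with a reach of 0, 1000, 2500 or 5000 bp, with summits within 500 bp merged and with own summits alone. All 8 genes had a summit inside, and the nearest to Hdac6 was 30585 bp away. The other reaches and the merging therefore could not change this count. It was 5 for summits at or above the median score and 2 at or above the upper quartile, against 41.9% and 24.3% of all protein-coding genes. At those thresholds, class I had 1 and 0 genes and class IV 0 and 0, and class IIa had 1 at the upper quartile. Genes with a summit at a gene end numbered 3 and 2 in place of 5. At or above the median score, the share of all protein-coding genes with one there was 31.6%. Hdac10 was in both counts only through the summit in Tubgcp6. Genes with a summit at a listed start numbered 3 and 1 in place of 5. For the latter, and for gene ends at the upper quartile, no share of all genes was computed. The 17 summits became 10 with a reach of 0 bp, 11 with own summits alone, 7 at or above the median score and 3 at or above the upper quartile. The median highest score of 45.5 became 34.4 with a reach of 0 bp or own summits alone and 40.9 with 1000 bp. It was 49.5 and 110 at the 2 higher thresholds, which drop low scores by construction. The other 48 of 68 recomputed values stayed near the reported count (within the factor of 1.5 allowed) or equal to the reported median. Among them are the counts of genes with a summit in reach, in all and by class, at other reaches and after merging. Those were fixed in advance, as described above. No paired analysis was possible because there is 1 ChIP library and 1 input library. The unknown depth limits what a gene without a summit shows.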
